A study of Mus musculus with 2 samples.

Results

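The small leucine-rich proteoglycans are secreted matrix proteins built around a horseshoe of leucine-rich repeats, and 8 of them were followed here among the 31053 genes of the files: decorin (Dcn), biglycan (Bgn), asporin (Aspn), lumican (Lum), fibromodulin (Fmod), prolargin (Prelp), osteomodulin (Omd) and osteoglycin, also called mimecan (Ogn). The 8 genes were chosen from measured values of these same libraries, so their levels are a description and no test is attached to them. The measurements were single-cell transcriptomes, made on a 10x Genomics platform, of the utricular sensory epithelium, the patch of hair cells and supporting cells of a gravity-sensing organ of the inner ear. One library came from WT mice at embryonic day 14 (E14) and 1 from WT mice at postnatal day 2 (P2), with no treatment at either age. In both, the otolithic membrane was taken off by hand, the epithelium was loosened from the tissue under it with thermolysin and the cells were separated with Accutase. The labels do not give how many animals went into a library. With 1 library per age there is no replicate check, and a difference between the ages cannot be told apart from a difference between the 2 libraries.

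Proteins of this family bind collagen fibrils and set their spacing and diameter, and several of them also bind growth factors of the TGF-beta family. Decorin and biglycan carry chondroitin or dermatan sulfate chains, asporin is their close relative without such a chain, and lumican, fibromodulin, prolargin and osteomodulin form another class, whose members carry keratan sulfate or tyrosine sulfate or, for prolargin, a basic end that binds heparan sulfate. Osteoglycin belongs to a class apart from both. In the ear they are known from the mesenchyme around the otic epithelium and from its derivatives, such as the fibrocytes.

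The genes other than Bgn, 7 of the 8, sit in 3 neighbourhoods of the mouse genome, given here by GENCODE M21 on GRCm38. Aspn (chr13:49544443-49567565), Omd (chr13:49582462-49592822) and Ogn (chr13:49608046-49624501) follow each other on the plus strand with gaps of 14.9 and 15.2 kb, and Ecm2, a further leucine-rich repeat gene, precedes Aspn by 11.7 kb. Dcn (chr10:97479609-97518143) and Lum (chr10:97565128-97572703) lie 47.0 kb apart on the plus strand of chromosome 10, followed by Kera and Epyc. Prelp (chr1:133910304-133921414, minus strand) and Fmod (chr1:134037254-134048277, plus strand) are 116 kb apart with the family member Optc at 2.30 kb from Prelp, and Bgn stands alone on the X chromosome (chrX:73483602-73495933, plus strand).

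The RefSeq promoter table of GRCm38.p6 held 6 of the 8 genes. The 250 bases before the start are printed for the chromosome 13 neighbours and for Bgn, which varied least between the mesenchymal clusters. The neighbours shared their highest mesenchymal cluster with every other member but Prelp. Capitals mark TATAAA or its reverse complement, searched on both strands.
Aspn, chr13:49544193-49544442, plus strand: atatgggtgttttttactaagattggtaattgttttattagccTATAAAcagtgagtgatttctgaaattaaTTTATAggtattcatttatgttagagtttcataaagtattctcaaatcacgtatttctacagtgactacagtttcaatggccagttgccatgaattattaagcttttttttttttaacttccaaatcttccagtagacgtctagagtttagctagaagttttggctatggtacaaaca
Omd, chr13:49582212-49582461, plus strand: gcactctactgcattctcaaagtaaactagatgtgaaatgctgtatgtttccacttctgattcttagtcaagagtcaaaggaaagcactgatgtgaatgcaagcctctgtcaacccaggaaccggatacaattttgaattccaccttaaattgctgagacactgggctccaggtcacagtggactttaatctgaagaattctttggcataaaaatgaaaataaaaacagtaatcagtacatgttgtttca
Ogn, chr13:49607765-49608014, plus strand: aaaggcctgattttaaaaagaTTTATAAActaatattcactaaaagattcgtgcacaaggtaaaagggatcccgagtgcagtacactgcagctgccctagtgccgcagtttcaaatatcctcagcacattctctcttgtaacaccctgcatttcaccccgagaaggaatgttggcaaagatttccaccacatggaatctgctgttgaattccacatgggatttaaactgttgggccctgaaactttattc
Bgn, chrX:73483351-73483600, plus strand: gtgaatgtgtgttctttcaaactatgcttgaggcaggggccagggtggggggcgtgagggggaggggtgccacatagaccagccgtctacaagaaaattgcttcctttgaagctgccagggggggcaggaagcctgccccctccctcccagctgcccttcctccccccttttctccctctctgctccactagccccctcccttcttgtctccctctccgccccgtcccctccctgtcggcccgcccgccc
The Aspn window had a GC content of 30%, Omd of 38.4%, Ogn of 42% and Bgn of 64.4%, beside a median of 52.4% over the 32851 windows of that length. TATAAA was found 2 times in each of the Aspn and Ogn windows, where the 2 matches of Ogn overlap, and in 12.4% of all windows. CANNTG, the core of an E-box and its own reverse complement, was present once in Aspn, 3 times in Ogn, once in Bgn and once in Fmod, whose window is not printed, and in 66.2% of all windows. TAATTA (4.84% of all windows) and CTTTGT (16.5%) had no match in any of the 6 windows on either strand.

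After filtering, 10138 cells remained at E14 and 3877 at P2, with a median of 6668.5 and 9795 UMIs (molecules counted once each) per cell, and 23 barcodes occurred in both libraries. Clusters were made without the 8 genes and without the related gene lists below. At E14, 7 of 35 clusters, with 4480 cells, were mesenchymal cell-like by their markers: all 12 mesenchymal markers were detected in them, with Otor at 16770.2, Coch at 1526 and Pou3f4 at 419 CPM, although Col1a1 stood at only 6.24 while Col1a2 stood at 1315. CPM are the UMIs of a gene, summed over the cells of a group, per 1000000 UMIs of that group. A further 15 clusters, with 3001 cells, were epithelial, 350 cells of which passed 10 Zpld1 UMIs per 10,000. At P2, 27 of 28 clusters were epithelial, with 113 Zpld1-high cells among 3847, and 1 cluster of 30 cells was mesenchymal cell-like. Zpld1 encodes a membrane protein with a zona pellucida domain.

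Brackets below hold exact 95% Poisson intervals for a level and exact conditional binomial intervals for a ratio, and both cover counting error only. Because the chemistry reads 3′ ends, counts are not scaled to length, and levels of different genes are compared only within this method.

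The embryonic library held the family mainly in its mesenchyme. In E14 mesenchymal cell-like cells Dcn stood at 547 CPM (539 to 555), against 101 in all other kept cells, a ratio of 5.44 (5.27 to 5.62). Bgn stood at 210.1 (205 to 215) against 23.0, a ratio of 9.13 (8.56 to 9.75). Aspn, at 22.4 against 2.18, had the largest ratio of the 8, 10.3 (8.33 to 12.8). These 3 make up the class of decorin, and all were higher in the mesenchyme than in the pooled other kept cells. Pericyte-like cells stood above the mesenchyme as a whole in Bgn (497, 404 to 605) and Aspn (65.2, 34.7 to 111).

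Of the class of lumican, Lum stood at 186 CPM (181 to 190) in the mesenchyme and 31.1 elsewhere, a ratio of 5.97 (5.64 to 6.32). Omd was rare, with 29 UMIs in the mesenchyme and 4 in all other cells, a ratio of 9.66 (3.39 to 37.8). Fmod and Prelp stood apart from the rest of the family at the main settings. Fmod passed 2-fold with a looser cell filter, with doublets kept or with list genes among the variable genes. The level of Fmod was 4.34 against 2.503 (ratio 1.73, 1.35 to 2.23) and that of Prelp 6.70 against 7.55 (ratio 0.887, 0.748 to 1.05), so that the mesenchyme held 56.6% of the Fmod UMIs and 40.0% of the Prelp UMIs of the library, with 42.9% of all UMIs. Ogn stood at 131 (127 to 135) against 31.7, a ratio of 4.13 (3.90 to 4.39).

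Thus 6 of the 8 genes were at least 2-fold higher in the mesenchymal cell-like cells, where 7.76% of the 16538 genes with 10 or more UMIs on either side were, and the median log2 ratio was 2.51 for the members and -0.14 for all genes tested. Unnamed shallow clusters that are not epithelial (1735 cells) held between 1.72% (Prelp) and 6.46% (Bgn) of each gene's UMIs. Against the epithelial cells alone the ratios were 40.3 (25.9 to 66.3) for Aspn, 39.4 (34.1 to 45.7) for Bgn, 7.26 (6.77 to 7.79) for Lum and 6.09 (5.86 to 6.32) for Dcn. Macrophage and other immune cell-like cells served as a low reference, and whether they make any of these genes was not tested. Dcn stood there at 5.10 (2.33 to 9.67), Lum at 3.96, Bgn at 3.40 and Ogn at 1.70, with Fmod, Omd and Prelp at 0 UMIs, which allows up to 1.70 CPM.

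Within the mesenchyme the family was far from even. The 7 clusters were led by Car3, Aqp1 and Prr16 (cluster 0, 1178 cells), Wif1, Trf and Coch (cluster 2, 969 cells), Chst1, Apod and Crym (cluster 3, 919 cells), Osr1, Kcnk2 and Tppp3 (cluster 10, 339 cells), and Aspn itself with Col12a1 and Mgp (cluster 6, 397 cells), while cluster 5 (408 cells) was led by the histone genes Hist1h2ap, Hist1h1b and Hist1h2ae and cluster 14 (270 cells) by the mitotic genes Cenpa, Cenpf and Pttg1. Aspn was kept out of the clustering, so its lead in cluster 6 was not built in by its own counts. All members but Prelp had their highest mesenchymal level in cluster 6, and Prelp had its highest in cluster 14. The same 7 clusters are shown member by member in the panels of the mesenchymal plot.

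**Figure D1:**
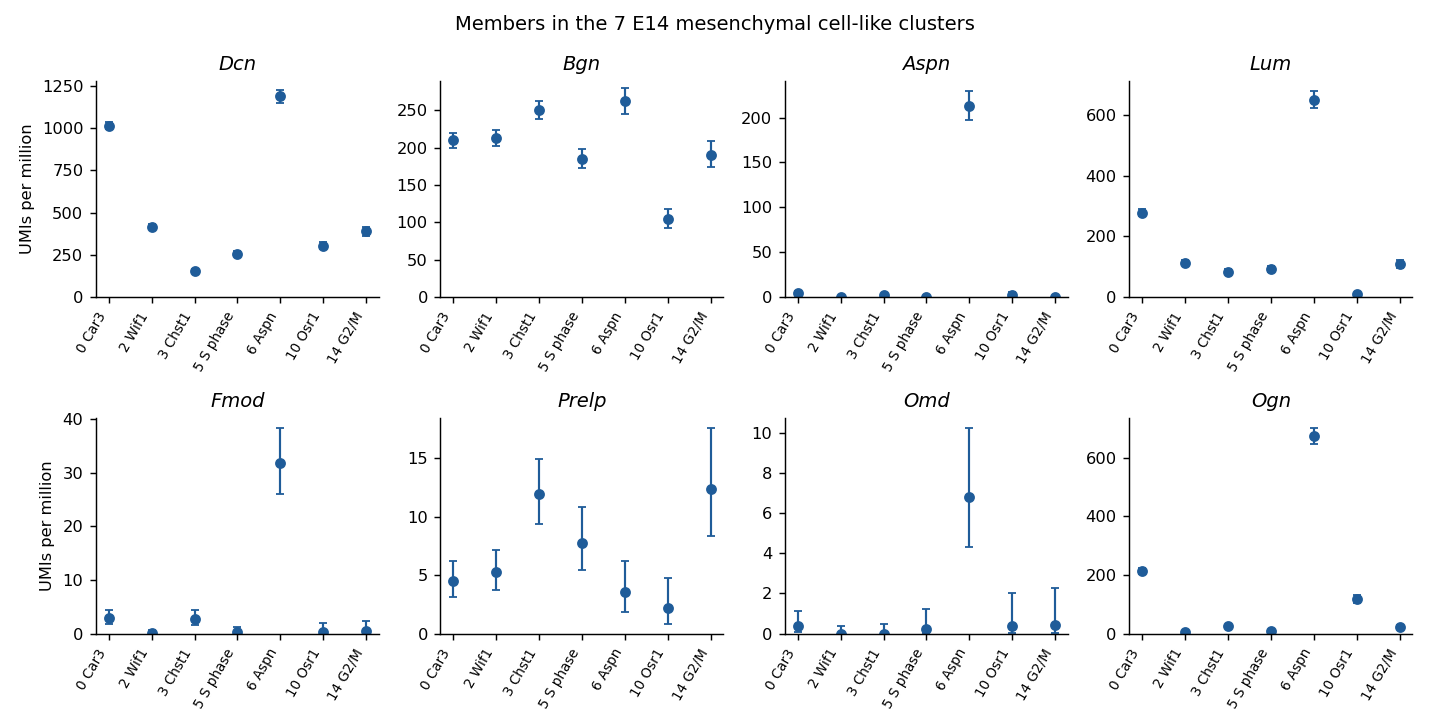
CPM (linear axis from 0) of each member in the 7 E14 mesenchymal cell-like clusters, named by number and leading gene or cell cycle phase; points are levels and bars exact 95% Poisson intervals. Aspn, Fmod and Omd stood out in cluster 6 alone (213, 31.7 and 6.82), Dcn, Lum and Ogn were next highest in cluster 0, and Bgn was between 105 and 262 in every cluster.

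Dcn stood at 1189 CPM in cluster 6 and 1015 in cluster 0, then at 417, 388, 302 and 257 in clusters 2, 14, 10 and 5, and at 154 in cluster 3. The highest was 7.71 times the lowest (7.18 to 8.28), and in this order only the intervals of clusters 2 and 14 overlapped. Bgn ran from 262 in cluster 6 over 250.4 in cluster 3 to 105 in cluster 10, a 2.505-fold span (2.19 to 2.87) and the narrowest of the 8. Its first 2 clusters did not differ beyond their intervals, and cluster 3, the lowest for Dcn, was among the highest for Bgn, so that the UMIs of Dcn per UMI of Bgn went from 4.84 in cluster 0 and 4.54 in cluster 6 to 0.616 in cluster 3. Aspn stood at 213 in cluster 6 (719 of its 778 mesenchymal UMIs), at 4.86 in cluster 0 and at 2.55 or less in the other 5, with no UMI in cluster 14. Against the 3 UMIs that a count of 0 allows there, cluster 6 was at least 173-fold higher.

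Lum was highest in cluster 6 at 651 and next in cluster 0 at 278. It lay between 83.7 and 113 in clusters 2, 3, 5 and 14, where neighbours in the order 2, 14, 5 and 3 overlapped, and dropped to 8.02 (22 UMIs) in the Osr1-led cluster 10, 81.2-fold below cluster 6 (53.5 to 130). Cluster 10 still held Dcn at 302, which gives 37.6 Dcn UMIs per Lum UMI there, beside 1.82 to 3.70 in the other 6 clusters. Fmod, whose product binds the same collagens as lumican, stood at 31.7 in cluster 6 and at 2.94 or less elsewhere, and the 242-fold span to cluster 2 rests on 1 UMI in that cluster (42.6 to 9663). Omd, named for bone, had 23 of its 29 mesenchymal UMIs in cluster 6. Its level there, 6.82 (4.32 to 10.2), was at least 17.4-fold above cluster 2, where none was counted. Prelp was spread the other way, from 12.3 in cluster 14 and 11.9 in cluster 3 to 3.56 in cluster 6 and 2.19 in cluster 10, and no neighbouring pair in its order was apart beyond the intervals.

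Ogn had the steepest slope among the abundant members. It stood at 673 in cluster 6, 214 in cluster 0 and 117 in cluster 10, then at 24.99 and 22.6 in clusters 3 and 14, 9.56 in cluster 5 and 3.93 in cluster 2, a 171-fold span (120 to 255). Clusters 2 and 0 thus differed little in Bgn (213 and 209.8), more in Dcn (417 and 1015) and most in Ogn. Thus 7 of the 8 members were at least 4-fold apart between clusters, where 23.5% of 12487 genes were, Bgn being the exception, and the median log2 span was 5.64 for the members and 1.04 for all genes tested. All members together made up 3031 CPM in cluster 6, 1730 in cluster 0 and between 530 and 752 in the other 5.

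The shallow unnamed cluster 20 (140 cells), led by haemoglobin genes with Osr1, Aspn and Sema3d behind them, repeated much of the profile of cluster 6, with Aspn at 124 (91.4 to 164), Ogn at 302, Fmod at 31.0 and Dcn at 403. It was not counted as mesenchymal. Its depth was low (median 1582 UMIs), and the part of depth and of haemoglobin RNA in its member levels was not tested.

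Cell by cell, after thinning each cell to 4000 UMIs and leaving out 441 shallower cells, 59.7% of 4039 E14 mesenchymal cell-like cells had a Dcn UMI (58.1 to 61.2), 53.4% a Bgn UMI, 34.0% a Lum UMI, 23.6% an Ogn UMI and 3.89% an Aspn UMI, and unthinned the shares were 67.2%, 71.2%, 42.2%, 29.3% and 5.83%. In immune cell-like cells (131 thinned, median 3599 UMIs before thinning against 7340 in the mesenchyme) the Dcn share was 0.763%. At this depth a mesenchymal cell-like cell showed a median of 2 different members, and 373 cells (9.23%) showed 4 or more. In cluster 0, 86.2% of the thinned cells had a Dcn UMI.

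Across all 35 E14 clusters, which share 1 library, the pair most alike was Dcn and Lum, with a Pearson r of 0.906 for log2 levels (5 CPM added), and they are also neighbours on chromosome 10. Aspn and Omd followed at 0.833 and Ogn and Fmod at 0.719, whereas Prelp had r between -0.212 and 0.178 with each of the other members. Over the 7 mesenchymal clusters alone Aspn, Omd and Fmod ran together with r of 0.958 to 0.984, all 3 having their maximum in cluster 6. Among genes with 200 or more UMIs, the 3 most like each member were Lum, Fbn1 (0.823) and Cxcl12 (0.807) for Dcn, Foxc1 (0.964), Twist1 (0.936) and Eva1b (0.933) for Bgn, and Thbs2 (0.861), Foxc2 (0.824) and Foxp2 (0.794) for Aspn. For Lum they were Dcn, Frzb (0.827) and Car3 (0.798), for Fmod Col8a1 (0.734), Ogn and Ptx3 (0.717), and for Prelp Fgfr2 (0.808), Fam20c (0.741) and 2810429I04Rik (0.723). Ogn was nearest to Cldn11 (0.782), Lox (0.779) and Ppp1r3b (0.776), and Omd, on 33 UMIs in all, to Ildr2 (0.865), Aspn and Ptx3 (0.785). These are descriptions over clusters of unequal size.

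Bgn and Aspn were also present in the cells of vessels. The 56 pericyte-like cells at E14 held Bgn at 497 CPM (404 to 605), above every mesenchymal cluster, and Aspn at 65.2 (34.7 to 111, 13 UMIs), with Dcn at only 80.2. In the 115 endothelial cell-like cells Bgn stood at 152 (127 to 180) and Dcn at 16.7, so Bgn made up 81.4% of the member UMIs there and 68.8% in the pericyte-like cells, beside 19.0% in the mesenchyme. Glial cell-like cells (392) held Dcn at 124 and Lum at 64.5 with Bgn at 30.6, and their 1752 Col1a2 UMIs give 0.189 Dcn UMIs per Col1a2 UMI, against 0.416 in the mesenchyme.

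Inside the epithelium the family was split between distinct places, as the plot of all epithelial clusters shows. At E14 the level of Dcn over all 3001 epithelial cells was 89.8 CPM, but single clusters ran from 2.37 to 472. Of the 15, 4 were above 100: cluster 13, led by Zpld1 and Msx1, at 472 (450 to 494), cluster 30, led by Igfbpl1 and Nts with Zpld1 also among its first genes, at 334 (294 to 378), cluster 21, led by Sfrp5 and Wnt3, at 322 (295 to 351), and cluster 24, led by Tectb, which encodes a protein of the tectorial and otolithic membranes, at 171 (150 to 194). Clusters 13, 24 and 30 were supporting cell-like and cluster 21 nonsensory epithelial cell-like by their markers. Hair cell-like cells stood at 7.34.

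**Figure D2:**
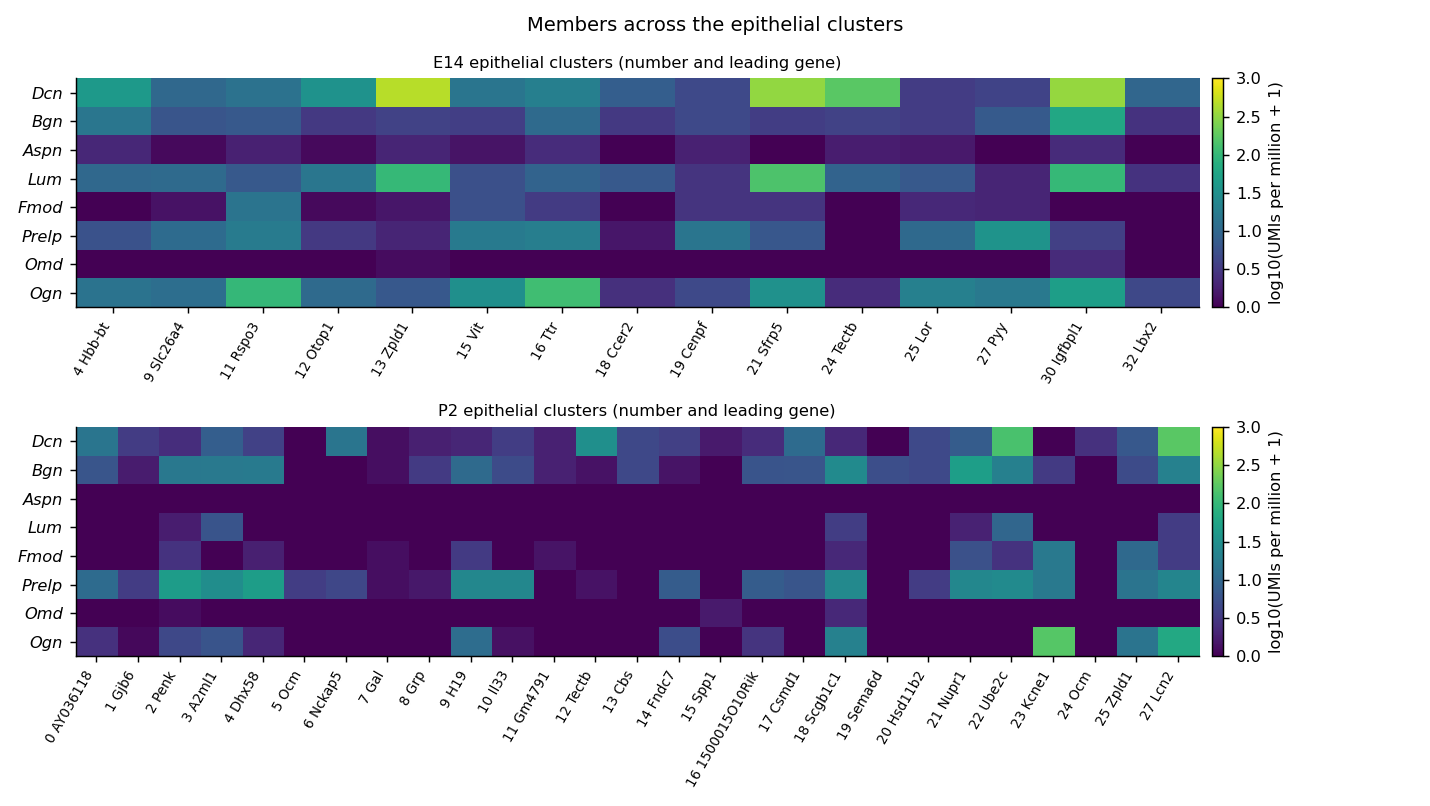
Level of each member (colour, log10 of CPM + 1, from 0 to 3) in the 15 E14 and 27 P2 epithelial clusters, each named by its number and leading gene. Dcn and Lum stood out in E14 clusters 13, 21 and 30, Ogn in E14 clusters 11 and 16 and in P2 cluster 23, Prelp in P2 clusters 2 and 4, and no P2 epithelial cluster had an Aspn UMI.

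Lum went with Dcn in 3 of these 4 clusters, at 101 in cluster 13, 100.5 in cluster 30 and 144 (126 to 164) in cluster 21, and not in the Tectb-led cluster 24, where it stood at 7.90 (11 UMIs). Bgn did not follow them. It stood at 2.90 in cluster 13, 2.48 in cluster 21 and 2.87 in cluster 24, close to its 3.40 in immune cell-like cells, while cluster 30 held 61.1. Dcn UMIs per Bgn UMI were 163 in cluster 13, 130 in cluster 21 and 59.5 in cluster 24, against 2.60 in the mesenchyme, and Dcn UMIs per Col1a2 UMI 21.6, 13 and 7.68 against 0.416. In cluster 30 the same values were 5.47 and 0.904. Col1a2 (272 UMIs in 51 cells) and Otor (4440.3 and 6119 CPM in its cells under and over 20 Zpld1 UMIs per 10,000) were high there. Dcn stood at 332 and 345 in these groups. Of the thinned cells of cluster 30, 24 had a Dcn UMI and 15 had none. With all their UMIs counted, the first held Dcn at 433, Col1a2 at 340 and Otor at 4638. The second held 232, 381 and 4415. Mesenchymal RNA was thus high in both, and its part in the members of that cluster was not tested.

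Ogn marked other epithelial cells. It stood at 99.6 (90.7 to 109) in cluster 11, led by Rspo3, Esrrb and Bpifb3 with Kcne1 among the first 10 genes, and at 121 (106 to 136) in cluster 16, led by Ttr, Wnt4 and Otx2, with Dcn at only 12.3 and 18.9 there. Cluster 11 was also the highest epithelial cluster for Fmod, at 13.4 (10.3 to 17.2), above the 4.34 of the mesenchyme as a whole, so Fmod and Ogn were high together in cluster 11. Cluster 16 did not share this: Fmod made up 1.32% of its member UMIs, beside 8.67% in cluster 11. At P2 the Kcne1-led cluster 23 (43 cells) again held Ogn at 162 (127 to 204) and Fmod at 15.5 (7 UMIs), while Dcn, Lum and Aspn were at 0 UMIs, which allows up to 6.65 CPM. Kcne1 encodes a potassium channel subunit of the dark cells that secrete endolymph.

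Prelp had the largest share of its E14 UMIs in epithelial cells other than the Zpld1-high ones, 54.7%, where these cells held 38.9% of all UMIs. At P2 the share was 94.8%, beside 95.6% of all UMIs. Its E14 level was highest in cluster 27 (Pyy-led, 72 cells) at 33.6 and cluster 24 had no Prelp UMI, while hair cell-like cells stood at 0.408. At P2 clusters 2, led by Penk with Slc26a4 among its first 10 genes, and 4, led by Dhx58, held 45.0 (38.7 to 52.0) and 45.3 (38.6 to 52.8), supporting cell-like cells 3.45 (2.496 to 4.65) and hair cell-like cells 0.387 (0.126 to 0.904). The level over all epithelial cells was 9.36 at E14 and 14.2 at P2, a ratio of 1.52 (1.33 to 1.74).

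The summed Zpld1-high epithelial cells at E14 held more decorin than the other epithelial cells, with 1790 of their 1881 Dcn UMIs in cluster 13 and 914 of these in 8 cells. Dcn stood at 427 CPM (407 to 446) in the 350 cells and at 42.8 (40.6 to 45.2) in the 2651 other epithelial cells, a ratio of 9.96 (9.28 to 10.7), and the ratio to the mesenchyme was 0.780 (0.743 to 0.818). Without these 8 cells it stood at 243, beside 547 in the mesenchyme. With clusters 13 and 30 left out of the Zpld1-high cells only, the ratio to other epithelial cells turned to 0.201 (0.0738 to 0.440). Both alternatives were chosen after the data were seen. Lum stood at 92.3 (83.5 to 102) against 16.2, a ratio of 5.68 (4.98 to 6.48). The others did not share this. Ogn was lower, at 10.7 against 34.5 (ratio 0.309, 0.225 to 0.413, and 0.465 with the Zpld1 threshold at 5 UMIs per 10,000), as were Prelp, at 4.08 against 10.1 (ratio 0.404, 0.236 to 0.649), and Fmod, on 2 UMIs at 0.454 against 3.103 (ratio 0.146, 0.0175 to 0.542). Bgn did not differ beyond its interval at 5.44 against 5.32 (ratio 1.02, 0.638 to 1.57), but keeping every cell with at least 200 genes gave 1.80 (1.22 to 2.58), a Zpld1 threshold of 5 gave 1.87 (1.31 to 2.61) and thinning to 4000 UMIs per cell 2.27 (0.959 to 4.84). Aspn did not differ beyond its interval on 4 and 16 UMIs (ratio 1.79, 0.436 to 5.55), and Omd had 2 UMIs against 0. Thus 2 of the 7 members with 10 or more UMIs in either group were at least 2-fold higher, where 3.34% of 15300 genes were, and the median log2 ratio was 0.03 for the members and -0.14 for all genes tested. Dcn made up 78.9% and Lum 17.1% of the member UMIs of these cells. With doublets kept the ratios were 5.79 for Dcn and 3.62 for Lum.

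**Figure D3:**
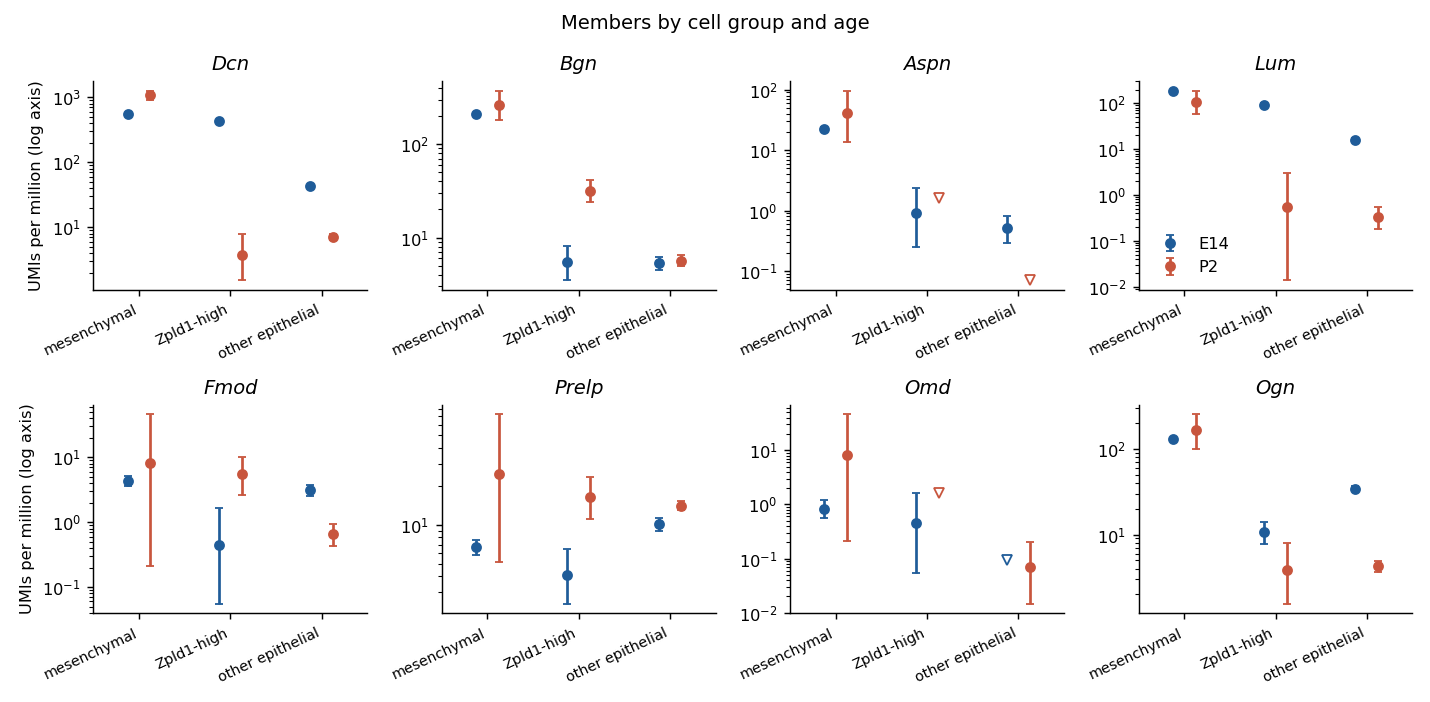
CPM (log axis) of each member in mesenchymal cell-like, Zpld1-high epithelial and other epithelial cells at E14 (blue) and P2 (red); bars are exact 95% Poisson intervals and open triangles mark the upper limit where no UMI was counted. In the Zpld1-high cells Dcn and Lum stood at 427 and 92.3 at E14 against 3.83 and 0.547 at P2, while Bgn was 31.7 there at P2 and 5.44 at E14.

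The 12 mesenchymal markers summed to 495 CPM in the E14 Zpld1-high cells, 363 in the other epithelial cells and 21633 in the mesenchyme, with Col1a2 at 35.1, 24.2 and 1315. In the thinned cells 32.9% of 228 Zpld1-high cells had a Dcn UMI (26.8 to 39.4; 36.3% of all 350 unthinned) against 7.46% of 1958 others and 0.763% of immune cell-like cells.

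Dcn was highest in the cells with the most Zpld1, but did not climb step by step below that. Among E14 epithelial cells it stood at 41.8 CPM with no Zpld1 UMI (2440 cells), at 31.9 (26.8 to 37.7) above 0 and under 5 Zpld1 UMIs per 10,000 (153 cells), at 126 (104 to 151) with 5 to 10 (58 cells), at 62.1 (47.6 to 79.6) with 10 to 20 (75 cells), at 253 (229 to 279) with 20 to 50 (131 cells) and at 787 (747 to 829) with 50 or more (144 cells). Lum stood at 16.5, 8.56, 43.7, 14.0, 49.3 and 175 in the same 6 groups in that order. Bgn stood at 4.74, 4.63, 25.1, 6.01, 9.25 and 1.68, the last on 3 UMIs, and Ogn at 36.2, 22.7, 41.5, 14.0, 14.2 and 5.59. The group from 5 to 10, just below the threshold, thus stood above both its neighbours in all 4 genes and held 147 Col1a2 UMIs. It included deep cells of cluster 30, with 81727, 83735, 64355 and 52420 UMIs. Their Dcn was 2.69, 3.34, 3.42 and 0.191 UMIs per 10,000, and their Col1a2 4.28, 4.30, 4.51 and 2.67. The part of cluster 30 in this step was not tested. Just above the threshold the 42 cells with 10 to 15 held Dcn at 62.0 (43.0 to 86.7) with 30 Col1a2 UMIs.

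**Figure D4:**
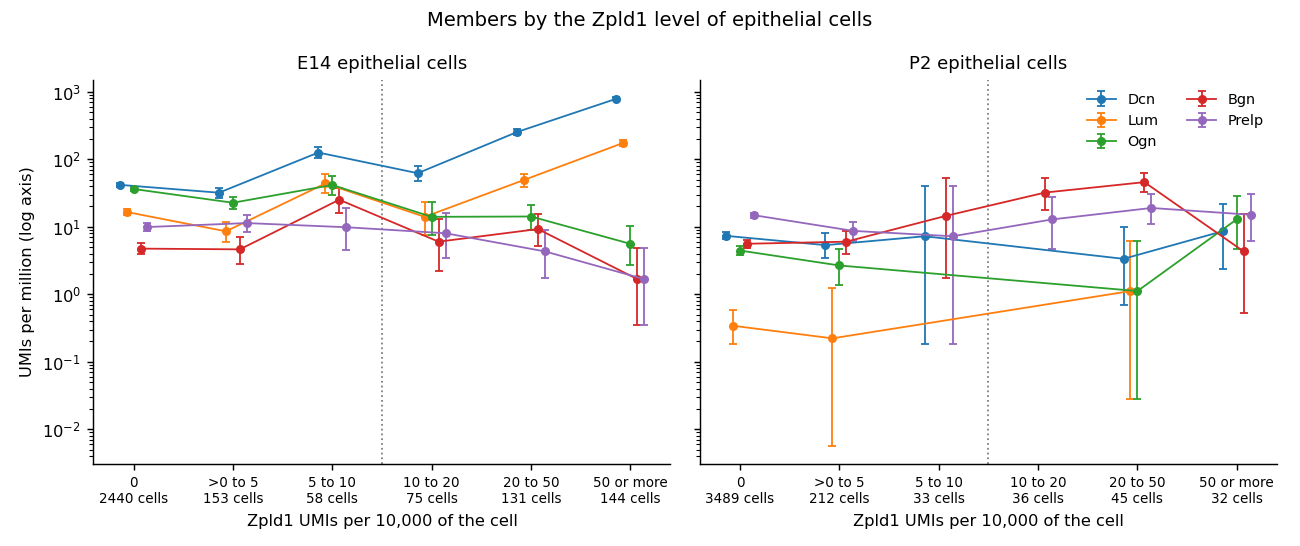
CPM (log axis) of 5 members in epithelial cells grouped by their Zpld1 UMIs per 10,000, at E14 (left) and P2 (right), with exact 95% Poisson intervals; the dotted line is the threshold of 10, and groups without a UMI of a gene have no point. At E14 Dcn reached 787 and Lum 175 in the 144 cells with the most Zpld1, and at P2 Dcn stayed at or under 8.60 in every group.

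Most of this signal came from 1 cluster, and within it from few cells. Cluster 13 held 258 of the 350 Zpld1-high cells and 1790 of their 1881 Dcn UMIs, and cluster 30 held 34 cells and 85 Dcn UMIs. Zpld1 was among the first 10 genes of both. With these 2 clusters left out of the Zpld1-high cells, but not of the other epithelial cells, the ratio was 0.201 for Dcn and 0.974 (0.483 to 1.76) for Lum. Prelp came to 2.14 (1.18 to 3.58), so of the 7 only Prelp was 2-fold higher. These ratios rest on few UMIs. Dcn had 4 in cluster 9 and 2 in cluster 21, Lum had at most 5 in a cluster, and 12 Prelp UMIs lay in 14 cells of cluster 15. Of the 279 cells of cluster 13, 99 (35.5%) had a Dcn UMI, 51 a Lum UMI and 46 both, and 39 cells had 10 or more Dcn UMIs.

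Of the 1793 Dcn UMIs of cluster 13, 914 lay in 8 cells, or 2.87% of its cells, whereas the same part of the Dcn UMIs took 6.86% of the cells in mesenchymal cluster 3, where 34.1% had a Dcn UMI, 9.80% in cluster 30 and up to 21.3% in mesenchymal cluster 0. They had 75 to 209 Dcn UMIs, 4 to 40 Lum UMIs and 41.4 to 82.2 Zpld1 UMIs per 10,000. None had a Bgn UMI, and 1 had a single Col1a2 UMI. They were deep, with 23781 to 92624 UMIs each. One had 5510 Hbb-bs UMIs and the others 0 to 7. Cells were ranked by their number of Dcn UMIs, so depth enters this comparison between clusters, and its part was not tested. The highest Dcn level of the cluster, 4532 CPM, lay outside the 8, in a cell of 6619 UMIs. With the 8 left out, Dcn stood at 243 in the other 342 Zpld1-high cells, a ratio of 5.66 (5.21 to 6.16), and Lum at 48.4, a ratio of 2.98 (2.51 to 3.53).

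**Figure D5:**
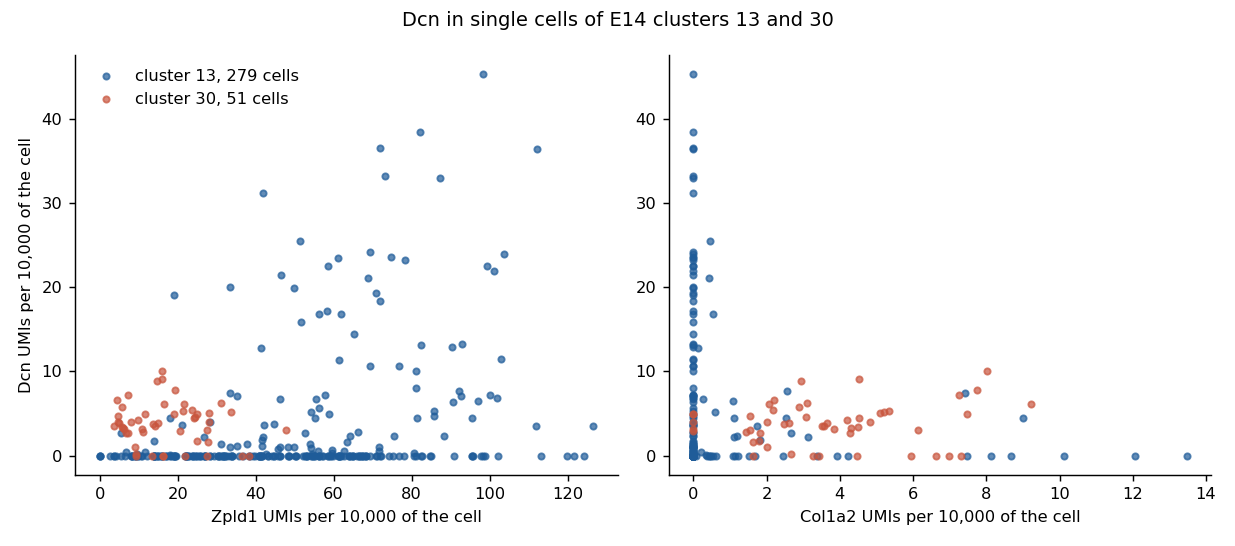
Dcn UMIs per 10,000 of each cell against its Zpld1 (left) and Col1a2 (right) UMIs per 10,000 in E14 clusters 13 (blue, 279 cells) and 30 (red, 51 cells), each point a cell. The cells of cluster 13 with the most Dcn had no Col1a2 UMI or nearly none, and in cluster 30 Dcn and Col1a2 were present together.

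Inside cluster 13 the level of Dcn was 15.3 (8.12 to 26.1) in 52 cells under 20 Zpld1 UMIs per 10,000, 307 (276 to 340) in 88 cells from 20 to 50, and 811 (769 to 854) in 139 cells from 50 on, and Lum went from 0 over 58.7 to 180.1. Of the thinned cells of the cluster, 60 had a Dcn UMI and 106 had none. Among the first, 43.3% had a Lum UMI (30.6 to 56.8), among the second 4.72% (1.55 to 10.7). The cells with Dcn also stood higher in Msx1, at 905 CPM against 146, and in Zpld1, at 6153 against 3600, and in the red blood cell gene Hbb-bs, at 10330 against 104, with 5510 of its 13621 UMIs in 1 cell, and were lower in the mesenchymal genes Col1a2 (9.10 against 24.2) and Otor (56.9 against 71.8). They were deeper before thinning (median 16531.5 against 9710 UMIs), and the part of depth and of red blood cell RNA in these differences was not tested. Msx1 encodes a homeodomain transcription factor.

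At P2 the same rule gave cells of a different make-up. Of the 113 Zpld1-high cells, 42 came from cluster 21, led by Nupr1, Prss56 and C1ql3, 30 from cluster 25, led by Zpld1, Car3 and Myh8, 25 from cluster 3 and 10 from cluster 9. Cluster 21 was nonsensory epithelial cell-like and the other 3 unnamed, whereas the E14 cells had been mostly supporting cell-like. In these cells Bgn stood at 31.7 CPM (24.1 to 41.0) against 5.67 in other P2 epithelial cells, a ratio of 5.59 (4.13 to 7.48; 3.55 after thinning), and Fmod at 5.47 on 10 UMIs against 0.656, a ratio of 8.34 (3.61 to 17.7). The rest gave no difference beyond the intervals: Dcn stood at 3.83 against 7.12 (ratio 0.537, 0.214 to 1.12), Prelp 16.4 against 14.2 (1.16, 0.775 to 1.67), Ogn 3.83 against 4.24 (0.903, 0.358 to 1.90) and Lum 1 UMI against 14 (1.67, 0.0394 to 10.96). Aspn had no UMI in either group. The other epithelial cells included 921 hair cell-like cells with Bgn at 1.32 and 684 supporting cell-like cells with Bgn at 1.36. Bgn was not confined to the Zpld1-high cells. Cluster 18 held none of them, and clusters 2 and 4 held 1 and 2. All members together stood at 77.0, 67.7 and 66.4 CPM in clusters 18, 2 and 4. Bgn made up 33.9%, 22.3% and 24.7% of their member UMIs, which puts it above 5.67 and below 31.7 in each. The part of the make-up of the other epithelial cells in the Bgn ratio was not tested. Nor did Bgn rise steadily with Zpld1 inside the Zpld1-high cells. It stood at 32.1 in the 36 cells with the least Zpld1 and 45.8 in the next 45. In the 32 cells with the most it stood at 4.30 (0.521 to 15.5) on 2 UMIs.

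Thus 2 of the 6 members with 10 or more UMIs in either group were at least 2-fold higher, where 8.35% of 15745 genes were, with a median log2 ratio of 0.48 for the members and -0.03 for all genes tested. Without clusters 21 and 25 Bgn alone was, with no Fmod UMI left in the Zpld1-high cells. After thinning Fmod had too few UMIs to be counted, though its ratio was 11.3 (1.08 to 69.3). Cluster 21 alone held 46 of the 58 Bgn UMIs and 5 of the 10 Fmod UMIs, and cluster 25 the other 5 Fmod UMIs with 2 of Bgn. In the thinned cells 9.20% of 87 Zpld1-high cells had a Bgn UMI (4.05 to 17.3; 23.9% unthinned) against 2.51% of 2468 others and 0.484% of 827 hair cell-like cells. The 12 mesenchymal markers summed to 8.20 CPM in the P2 Zpld1-high cells and 26.5 in the others, with Col1a2 at 0.547 and Pou3f4, Prrx1, Twist1 and Col3a1 at 0 in the former.

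Set side by side, the Zpld1-high cells of the 2 libraries held different members. Dcn went from 427 to 3.83 CPM, a P2 over E14 ratio of 0.00898 (0.00360 to 0.0185), Lum from 92.3 to 0.547 (0.00593, 0.000150 to 0.0332) and Ogn from 10.7 to 3.83 (0.359, 0.137 to 0.7998). Bgn went from 5.44 to 31.7, a ratio of 5.83 (3.57 to 9.81), Prelp from 4.08 to 16.4 (4.02, 2.17 to 7.66) and Fmod from 2 to 10 UMIs (12.1, 2.57 to 113). Of the 6 members with enough UMIs, 3 were at least 2-fold higher at P2, where 13.6% of 12004 genes were, and 3 at least 2-fold lower, where 13% were, with a median log2 ratio of 0.27 for the members and 0.00 for all genes tested. After thinning only Dcn and Lum had enough UMIs, both lower at P2. All members together came to 541 CPM at E14 and 61.8 at P2 (ratio 0.114, 0.0938 to 0.138).

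The epithelial cells outside the rule also differed between the libraries. There Dcn went from 42.8 to 7.12 (ratio 0.166, 0.146 to 0.188), Lum from 16.2 to 0.328 (0.0202, 0.0110 to 0.0342), Ogn from 34.5 to 4.24 (0.123, 0.104 to 0.144) and Fmod from 3.103 to 0.656 (0.211, 0.134 to 0.325). Bgn did not differ beyond its interval (1.07, 0.872 to 1.31) and Prelp was higher at P2 (1.40, 1.22 to 1.61). The mesenchymal marker sum moved with these values, from 363 to 26.5 CPM, and the mesenchymal cells from 44.2% to 0.774% of the kept cells, and their part in the epithelial levels was not tested.

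Some of the epithelial places of the E14 library had a P2 counterpart by leading genes. The Tectb-led cluster 12 at P2, which also shared Igfbp3, Isl1 and Cyp26b1 with E14 cluster 24, held Dcn at 30.02 (23.5 to 37.8) and no Lum UMI, with Dcn making up 97.3% of its member UMIs. Cluster 27 at P2 (28 cells), led by Lcn2, Wnt3 and Sfrp5, held Dcn at 171 (134 to 217), Ogn at 63.7 and Lum at 2.45 on 1 UMI, while E14 cluster 21, with Sfrp5 and Wnt3 in front, had held Lum at 144. Cluster 22 at P2, led by the proliferation genes Ube2c, Pclaf and Top2a and holding the immune markers C1qa, C1qb, Fcer1g and Tyrobp, held Dcn at 135 beside 92 Col1a2 UMIs, and the part of those other cells in its Dcn was not tested.

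The mesenchyme of the P2 library was too small for a comparison gene by gene. Its 30 cells held 204 member UMIs, with Dcn at 1072 CPM (895 to 1274) against 547 at E14 (ratio 1.96, 1.64 to 2.33) and Lum at 108 against 186 (0.582, 0.310 to 0.996). Bgn (ratio 1.27), Ogn (1.27), Aspn (1.86 on 5 UMIs) and Prelp (3.72 on 3 UMIs) had intervals that reach both sides of 1. The summed members gave a ratio of 1.53 (1.33 to 1.76). These cells had a median of 1767.5 UMIs, and the 6 epithelial markers summed to 823 CPM in them against 62.8 in the E14 mesenchyme.

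The genes that work with this family were read from 6 lists. The share to set beside each count for the E14 mesenchyme is the 7.76% of all genes tested that were at least 2-fold higher there. Of 10 further leucine-rich proteoglycans, 8 could be tested in the E14 mesenchyme and 3 were at least 2-fold higher there: Epyc, the neighbour of Lum and Kera, at 6.55 CPM (ratio 4.53), Ecm2, the neighbour of Aspn (2.41), and Podn (2.40). Chadl stood highest of the list at 14.5, followed by Epyc, Tsku at 3.65 and Optc at 0.949. Fibril collagens and their partners were the list closest to the members, with 11 of 19 at least 2-fold higher, among them Col1a2 (11.4-fold), Col6a2 (9.01), Col6a1 (7.58), Col12a1 (7.38), Col3a1 (7.37), Col6a3 (6.08), Col5a2 (6.05), Fbn1 (5.07), Fbn2 (2.78), Thbs2 (2.06) and Col14a1 (2.04). Col1a2 at 1315, Col2a1 at 1125, Col9a1 at 733 and Col3a1 at 551 were the highest.

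The enzymes that build the sugar chains were much more even between mesenchyme and other cells. Of 20 for chondroitin and dermatan sulfate only Chst14 (2.81-fold) and Dse (2.54-fold), both of which act on dermatan sulfate, were at least 2-fold higher, and B3gat3 (37.6), Chsy1 (37.5), Dse (33.8) and Chpf (27.3) stood highest. Of 8 for keratan sulfate only Chst1 was (9.65-fold), and it leads the mesenchymal cluster 3, where Lum stood at 83.7. B4galt4 (46.0), Chst1 (33.1), Chst2 (15.1) and B4galt1 (14.5) stood highest of that list. The median log2 ratio was 0.16 for the first list and -0.40 for the second, beside 2.51 for the members and -0.14 for all genes tested.

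In the TGF-beta list 3 of 14 were at least 2-fold higher in the mesenchyme, Tgfbi (11.6), Ltbp2 (3.83) and Tgfbr2 (2.502), with Tgfbi at 163, Ltbp3 at 71.0, Tgfb2 at 50.7 and Tgfbr2 at 31.9 CPM as the highest. Among matrix proteases, inhibitors and crosslinkers 5 of 15 were, Lox (14.1), Pcolce (6.76), Mmp2 (5.27), Loxl1 (3.03) and Timp1 (2.54), and Mmp2 (234), Timp2 (131), Mmp14 (122) and Timp3 (108) stood highest. Between the mesenchymal clusters 11 of 18 collagens and partners tested, 2 of 18 chondroitin sulfate enzymes, 2 of 5 keratan sulfate enzymes, 7 of 14 genes of the TGF-beta list and 9 of 14 of the protease list were at least 4-fold apart, with Thbs2 (205-fold), Ltbp2 (101), Col9a1 (86.4), Col12a1 (80.1) and Col1a1 (68.3) widest. Among all genes tested, 23.5% were at least 4-fold apart.

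In the E14 Zpld1-high cells the partners moved much less than Dcn and Lum. Of all genes tested 3.34% were at least 2-fold above other epithelial cells. One gene of 6 tested further leucine-rich proteoglycans was at least 2-fold above other epithelial cells, Epyc on 14 UMIs (3.71), the gene that follows Dcn, Lum and Kera on chromosome 10. So were 1 of 19 collagens and partners, Thbs2 (2.26), 1 of 19 chondroitin and dermatan sulfate enzymes, Ust (3.61), which adds sulfate to uronic acid, 1 of 8 keratan sulfate enzymes, Chst5 (2.31), and 2 of 14 genes of the TGF-beta list, Tgfb2 (3.33) and Ltbp1 (2.15). No gene of 15 in the protease list was. Tgfb2, whose product is a ligand of the pathway, stood at 536 CPM in these cells, 161 in other epithelial cells and 50.7 in the mesenchyme.

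At P2 the Zpld1-high cells were at least 2-fold above other epithelial cells in 5 of 18 collagens and partners, led by Col14a1 at 205 against 7.69 (26.6-fold) and Col5a1 (7.17), and in 6 of 14 genes of the protease list, led by Pcolce, an enhancer of procollagen processing, at 40.5 against 5.84 (6.94) and Timp2 (3.62). Tgfbr3 (7.21), Ltbp3 (2.62) and Tgfb3 (2.55) of 13 TGF-beta genes, B3gnt7 (4.16) of 7 keratan sulfate enzymes, Chst12 (2.11) of 19 chondroitin sulfate enzymes and Optc (2.19, on 3 UMIs) of 5 further proteoglycans were also above 2. The share over all genes tested in this comparison was 8.35%.

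In the Zpld1-high cells between the ages, the numbers at least 2-fold higher and lower at P2 were 2 and 1 of 4 further proteoglycans tested, 4 and 6 of 13 collagens and partners, 4 and 4 of 18 chondroitin and dermatan sulfate enzymes, 1 and 1 of 5 keratan sulfate enzymes, 5 and 2 of 12 TGF-beta genes, and 4 and 1 of 12 genes of the protease list. All genes tested gave shares of 13.6% higher and 13% lower. Tgfb2 went from 536 to 36.1 CPM (ratio 0.0673), Ust from 13.2 to 0.547 on 1 UMI (0.0416) and Col1a2 from 35.1 to 0.547 on 1 UMI (0.0156), the same side as Dcn and Lum. Tgfbr3 (15.3), Adamts5 (9.65), Chad (8.84), Pcolce (6.87) and Col14a1 (4.14) were on the side of Bgn.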

How the data were processed

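One library of WT utricular sensory epithelium at E14 and 1 at P2 were used. What the authors deposited are unnormalized UMI counts for each gene in each barcode called as a cell, from Cell Ranger 3.1.0 by the submitters' processing notes, which also name Seurat 4.1.1 and the builds GRCm39 and mm10, and the files carry no coordinates, so positions come from GENCODE M21 and windows from RefSeq, both on GRCm38. The deposited files hold 15636 barcodes with 122892080 UMIs at E14 and 6251 with 57003553 at P2.

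A barcode needed 500 genes, 1000 UMIs and a mitochondrial share no higher than 15% (11588 and 4081 passed). Doublets were scored by their nearness to artificial doublets, and the top-scoring 1450 and 204 barcodes, set by a rate of 0.8% per 1000 barcodes, were taken out. Clusters came from 2000 variable genes without the members, the lists and the mitochondrial, ribosomal and haemoglobin genes, 30 principal components, 15 neighbours and Leiden clustering at resolution 1 (leidenalg 0.10.2, scikit-learn 1.9.0, Python 3.11.15). A cluster took a class name from at least 3 markers of that class, and 11 clusters at E14 (3140 cells) and 13 at P2 (2148 cells) stayed unnamed. Clusters were epithelial at 300 or more summed CPM of 6 epithelial markers and at least 2 times Col1a2 plus Col3a1. The naming details and this rule were set after the marker tables were seen.

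Levels are CPM of summed counts, with exact 95% intervals (scipy 1.17.1) and with 3 counts as the limit that a count of 0 allows. A gene entered a comparison with at least 10 UMIs in either group, and a bound from a count of 0 that crosses 1 was set to 1. The functions were tested on simulated data. There was no test between samples. Besides the members, genes were named by a rule: the 3 most alike across E14 clusters, the 4 highest of each list in the E14 mesenchyme, list genes past the fold, and the 3 leading genes of each mesenchymal cluster. Further leading genes, markers, Msx1, Kera and list genes given beside them were named after their values were seen. The members and lists were chosen with earlier results of these data known. Alternatives were another cell filter, doublets kept, resolutions 0.5 and 2, list genes among the variable genes, thinning to 4000 UMIs, Zpld1 thresholds of 5 and 20, epithelial cells called singly, and clusters of at least 100 cells.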

Additional observations from a re-analysis of the deposited data

Results flagged for a closer look

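Fmod lay on opposite sides of 1 at the 2 ages when Zpld1-high cells were set against other epithelial cells. The ratio was 0.146 at E14 (2 UMIs against 98) and 8.34 at P2 (10 UMIs against 28), and each interval excluded 1. The difference between the ages was not tested, since each age is 1 library, and the Zpld1-high cells came from different clusters at the 2 ages.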

How the results depend on the processing

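With 1 library per age no sample can be left out. No paired analysis was possible because each group is 1 library. Of the values for the counts of members and the summed mesenchymal ratio under other settings, 52 stayed within 1.5 times or within the interval of the reported value and 5 moved. Counts that stayed by this rule could still change by 1. In E14 Zpld1-high cells the looser cell filter or a Zpld1 threshold of 20 gave 3 members in place of 2, with Aspn added, and thinning gave 3 with Bgn added. At P2 that threshold gave 3 in place of 2, with Lum added. Between the ages it gave 2 higher and 2 lower, in place of 3 and 3. After thinning to 4000 UMIs 1 member (Bgn) counted as at least 2-fold higher in P2 Zpld1-high cells, in place of 2, since Fmod (ratio 11.3) had under 10 UMIs, and 0 members at least 2-fold higher at P2 than at E14, in place of 3, with fewer cells and UMIs by construction. The summed mesenchymal ratio was 1.82 with list genes among the variable genes, in place of 1.53, and the cause was not tested. In another alternative the epithelial clusters with Zpld1 among their first 10 genes (13 and 30 at E14, 21 and 25 at P2) were left out of the Zpld1-high cells only. This choice, made after seeing the data, left 1 member in place of 2 at each age (Prelp at E14, Bgn at P2). It turned the E14 ratios of Dcn (0.201) and Prelp (2.14), while Lum (0.974, 0.483 to 1.76) no longer differed beyond its interval. Keeping doublets gave 5.79 for Dcn and 3.62 for Lum at E14. Bgn at E14 came to 1.80 to 2.27 with a looser cell filter, a Zpld1 threshold of 5 or thinning. In the E14 mesenchyme 7 members, in place of 6, were at least 2-fold higher under some settings, with Fmod added. These were the looser cell filter, doublets kept, and list genes among the variable genes. For single members, 101 values under other settings stayed, 19 moved and 3 came to the other side of 1, Lum among them with an interval that includes 1. Ratios from a count of 0 were left out. Depth limits Omd, Aspn outside the mesenchyme, Fmod in Zpld1-high cells and every member in the P2 mesenchyme.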
